A study of Homo sapiens with 9 samples.

Results

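The genes for the protein components of the cytosolic ribosome were followed through 9 RNA libraries of A549 cells, an established human lung adenocarcinoma line. Members were protein-coding genes named RPL or RPS plus a number, with at most 1 of A, X or L and an optional digit, together with RPLP0, RPLP1 and RPLP2. The pattern matched 83 of the 60676 genes in the count table. RPS27L was left out by name. RPL10L, a testis paralog, was left out because it had 0 counts in every library, which allows up to 3 counts, or about 0.15 CPM (counts scaled to library depth), in each. That left 81 members, each with at least 90 counts summed over the 9 libraries. Just inside that limit were RPL3L with 118 counts, RPS10 with 137, RPL17 with 169 and RPL36A with 425. All 81 passed the filter on low counts that kept 15500 genes for testing. They comprised 43 genes of the large subunit, 30 of the small subunit, 3 of the ribosomal stalk and 5 paralogs with an L suffix (RPL3L, RPL7L1, RPL22L1, RPL26L1 and RPL39L).

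The 9 libraries formed 3 groups of 3 replicates. The sample titles do not say whether each replicate was transduced separately. If not, the p-values do not measure spread between transductions. Cells of the shLITATS1-1 and shLITATS1-2 groups had received lentiviral short hairpin RNAs, each against the long noncoding RNA LITATS1. Cells of the shNT group had received a hairpin without a target. In every group puromycin was added 2 days after transduction and RNA was taken 3 days later, so all 9 libraries came from selected cells.

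A ribosome holds 1 copy of most of its proteins, the acidic stalk proteins being the main exception, and assembly needs the parts in matched amounts. Large subunit proteins line the peptidyl transferase centre and the exit tunnel for the nascent chain, small subunit proteins surround the decoding centre, and the stalk recruits translation factors. Most ribosomal protein mRNAs begin with a 5′ terminal oligopyrimidine (TOP) motif, a C at the cap followed by a run of pyrimidines. Through this motif mTORC1 and the RNA-binding protein LARP1 set how strongly the mRNAs are translated and how long they last, so RNA level and protein output need not move together.

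The starts of members on which the results turn are shown here because the TOP motif is the sequence feature these mRNAs are known for. Each line gives 30 bases around the start annotated by RefSeq on GRCh38.p14, on the strand of the gene, with the run of C and T near the start in capitals.
RPS23, chr5:82278340-82278369, minus strand: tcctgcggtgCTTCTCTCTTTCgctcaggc
RPL22, chr1:6199581-6199610, minus strand: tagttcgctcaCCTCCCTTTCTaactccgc
RPL22L1, chr3:170870181-170870210, minus strand: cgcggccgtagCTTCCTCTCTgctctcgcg
RPL31, chr2:101002274-101002303, plus strand: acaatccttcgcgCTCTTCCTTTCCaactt
RPL39, chrX:119791616-119791645, minus strand: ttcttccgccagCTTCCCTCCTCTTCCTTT
RPS19, chr19:41860240-41860269, plus strand: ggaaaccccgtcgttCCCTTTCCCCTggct
RPS6, chr9:19380222-19380251, minus strand: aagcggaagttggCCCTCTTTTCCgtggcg
RPLP0, chr12:120201097-120201126, minus strand: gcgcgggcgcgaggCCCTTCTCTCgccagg
RPL7L1, chr6:42879601-42879630, plus strand: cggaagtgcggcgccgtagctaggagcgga
RPL26L1, chr5:172958865-172958894, plus strand: ggcggggcggcggccacaaacccgcaggca
The 8 members in the upper lines each carry a run of 10 or more pyrimidines at the start, and the run of RPL39 goes on past the printed bases. The paralogs RPL7L1 and RPL26L1 carry none.

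RefSeq starts could be matched for 64 of the 81 members. A run was counted where a C within 5 bases of the start was followed by at least 4 pyrimidines on the strand of the gene. Such a run stood at the start of 53 of the 64 members (82.8%), against 3085 of 10483 other tested coding genes with a start (29.4%). Its median length among the matched members was 11 bases and its longest 22. Searching both strands of the 250 bases before to 50 after the start, CCGGAAG was present in 23 members (35.9%, against 21.6% of the other genes) and GCCATNTT in 11 (17.2%, against 12.1%). CACGTG was present in 5 members (7.81%, against 12.5%) and TATAAA in 6 (9.38%, against 8.55%). These are counts of letters in a window and not of bound sites.

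Each library held 19610514 to 19989652 fragments assigned to genes. LITATS1 itself is the check on the labels. The count table holds gene IDs, and LITATS1 was taken as ENSG00000233621, whose listed name ZC3H12A-DT is a RefSeq synonym of LITATS1. It had 72, 61 and 57 fragments with shLITATS1-1 and 69, 63 and 56 with shLITATS1-2, against 274, 283 and 328 with shNT. Fragments that the authors' counting left ambiguous between genes made up 10.2% with shLITATS1-1 and 10.3% with shLITATS1-2, against 10.8% with shNT. The 5 epithelial markers summed to between 7242 and 7351 CPM with shLITATS1-1 and between 3977 and 4234 CPM with shLITATS1-2, against 4105 to 4308 CPM with shNT. KRT8 and KRT18 made up most of this sum. They averaged 5054 and 2106 CPM with shLITATS1-1 and 2914 and 1016 CPM with shLITATS1-2, against 2966 and 1125 CPM with shNT. KRT19 averaged 106.3 CPM with shLITATS1-1 and 171.3 CPM with shLITATS1-2, against 79.2 CPM with shNT. EPCAM averaged 4.741 CPM with shLITATS1-1 and 4.751 CPM with shLITATS1-2, against 4.125 CPM with shNT. CDH1 averaged 32.6 CPM with shLITATS1-1 and 27.6 CPM with shLITATS1-2, against 35.1 CPM with shNT. Markers of fibroblasts, immune and endothelial cells summed to at most 6.61, 6.43 and 0.865 CPM in any library, and CD3E was at 0 throughout. Most of the immune sum was CD14, at 2.405 CPM with shLITATS1-1 and 5.668 CPM with shLITATS1-2, against 1.369 CPM with shNT. In bulk RNA, fewer cells of a kind and less RNA per cell cannot be told apart.

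Member levels in shNT cells spanned more than 3 orders of magnitude when fragments were counted per kilobase of merged exons and scaled to library depth as in CPM (FPKM). The median member stood at 132.6 FPKM. The highest was RPS2, a small subunit protein at the mRNA entry channel, with 726 FPKM. RPL19 (703 FPKM), RPL13A (577 FPKM) and RPL8 (563 FPKM) were also among the 5 highest. The 5 members with the most fragments together gave 20.6% of all member fragments in shNT libraries. Divided instead by the length of the longest coding transcript, RPS2 stood at 1764 FPKM and ranked second, so the order near the top depends on the length used.

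At the bottom stood RPL3L with 0.157 FPKM, a paralog known from striated muscle. Next came RPS10 (0.326), RPL17 (0.433) and RPL36A (0.632), which are core parts of the ribosome. In all, 9 members lay under 10% of the member median. For RPS10, RPL17 and RPL36A the table also has read-through genes, RPS10-NUDT3, RPL17-C18orf32 and RPL36A-HNRNPH2, all listed at 0. Pseudogenes named after these members held more counts than the members did, at 597% of the member's own count for RPS10, 511% for RPL17 and 336% for RPL36A. For RPL26 and RPL41 they held 37.4% and 33.0%. Counts of these 5 members are therefore uncertain, and no change in RPS10, RPL17, RPL36A or RPL41 passed the test against shNT. Fragments without a unique alignment entered no gene count. They made up 1.88% with shLITATS1-1 and 1.86% with shLITATS1-2, against 2.11% with shNT. Fragments left ambiguous between genes also entered no count, at 10.2% with shLITATS1-1 and 10.3% with shLITATS1-2, against 10.8% with shNT. On the same strand, other genes, the read-through ones included, overlap 39.4% of exonic bases in RPS10, 32.7% in RPL17 and 8.40% in RPL36A. RPS2, the highest member, shared 25.6%, and RPL3L, the lowest, shared none. The part of these overlaps in the levels was not tested. How many fragments of either kind came from members is not known. A low level per length therefore need not mean little RNA, for other members too. With pseudogene counts added, RPS10 was called lower with shLITATS1-1 than with shNT (log2 fold change -0.36, adjusted p = 0.0153).

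**Figure D1:**
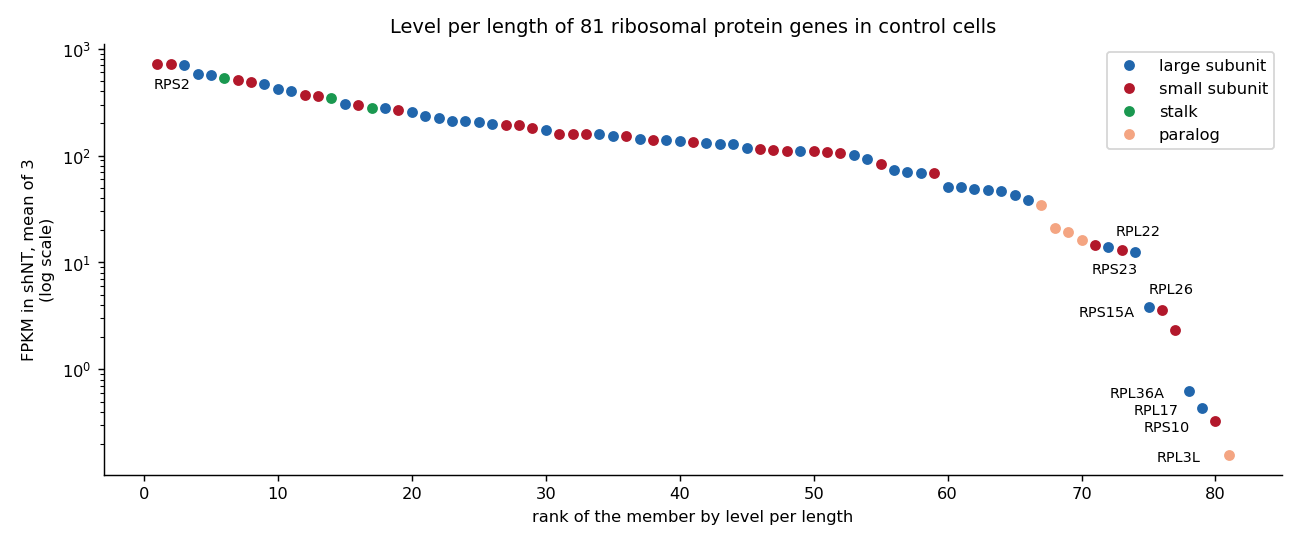
Level per length of the 81 members in shNT cells (FPKM, mean of 3 libraries, log scale) against rank, coloured by class. RPS2 leads at 726 FPKM, and RPL26, RPS15A, RPL36A, RPL17, RPS10 and RPL3L are in the tail.

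With shLITATS1-1, member RNAs were mostly slightly higher than with shNT. Of 81 members, 38 were called higher, 3 lower, and 40 did not pass (edgeR quasi-likelihood test, adjusted p below 0.05 over all 15500 genes). Calls were frequent in the whole transcriptome: 30.5% of all tested genes were called higher and 30.5% lower, 61% in all. Replicates had a biological coefficient of variation of 2.71%, estimated in common for all genes. The members' own counts differed between replicate pairs by a chi-square of 6.59 to 46.1 per degree of freedom, against 1.47 to 2.72 for all genes, a measure that grows with count at a given relative spread. The 41 called members were thus a smaller share of 81 than that background, and the members stood apart from it in direction, not in how often they were called. Their median log2 fold change was 0.093, beside -0.0070 for all genes. Changes were small: 69 members differed by less than 0.25 on the log2 scale, and 3 reached 0.5. In 40 members all 3 shLITATS1-1 libraries lay above all 3 shNT libraries and in 4 they all lay below, against 32.2% and 32% of all genes.

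The excess of higher calls held in both subunits. In the large subunit 19 of 43 members were called higher and none lower at adjusted p below 0.05 in edgeR (median 0.092), and in the small subunit 16 of 30 were higher and 1 lower (median 0.099). In the stalk 2 of 3 were higher. For each list of members given here with no call in a direction on the TMM scale, 0 passed that way at an unadjusted p below 0.05 in edgeR and 0 in DESeq2. Among the 5 paralogs 1 was higher and 2 were lower. These counts are on the TMM scale, and higher calls outnumbered lower ones for both subunits also when libraries were scaled by total or nuclear gene fragments.

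RPS23, a small subunit protein beside the decoding centre, changed most. Its level was 156, 152 and 154 CPM in shLITATS1-1 cells, against 65.7, 60.9 and 62.3 CPM in shNT cells. The groups lay far apart, with a log2 fold change of 1.29 (SE 0.040, adjusted p = 2.55e-40). The next-largest increase of a member called higher was 0.34.

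After RPS23 the largest increases were those of RPL39, RPS19, RPS12, RPL13A, RPL22L1, RPL11 and RPL21. RPL39, a small protein of the exit tunnel, had 362, 351 and 363 CPM with shLITATS1-1, against 296.7, 286.5 and 266.6 CPM with shNT (log2 fold change 0.34, SE 0.036, adjusted p = 2.4e-11). RPS19, the protein most often mutated in Diamond-Blackfan anaemia, had 1349, 1294 and 1288 CPM, against 977, 1065 and 1088 CPM with shNT (0.33, SE 0.033, adjusted p = 8.61e-12). In neither gene did the groups overlap. RPL11, which with RPL5 and 5S rRNA can bind MDM2, had 522, 510 and 505 CPM, against 422, 426 and 442 CPM with shNT (0.25, SE 0.032, adjusted p = 2.05e-10). Its partner RPL5 did not pass, with a log2 fold change of 0.051 (SE 0.030, adjusted p = 0.144). Of 6 members known for binding MDM2 or for p53 responses (RPL5, RPL11, RPL23, RPL26, RPS7 and RPS27A), RPL11 and RPS27A were called higher and none lower. With shLITATS1-2 none of the 6 was called higher and 3 were lower by TMM, and 3 were higher and none lower by library size (edgeR, adjusted p below 0.05). By TMM 33.3% of the 6 were called with shLITATS1-1 and 50% with shLITATS1-2, beside 61% and 56.7% of all tested genes. By library size 6058 of all 15500 genes were called higher with shLITATS1-2 and 2967 lower.

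The members called lower with shLITATS1-1 included the paralogs RPL39L and RPL7L1, whose values are given with the other paralogs.

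**Figure D2:**
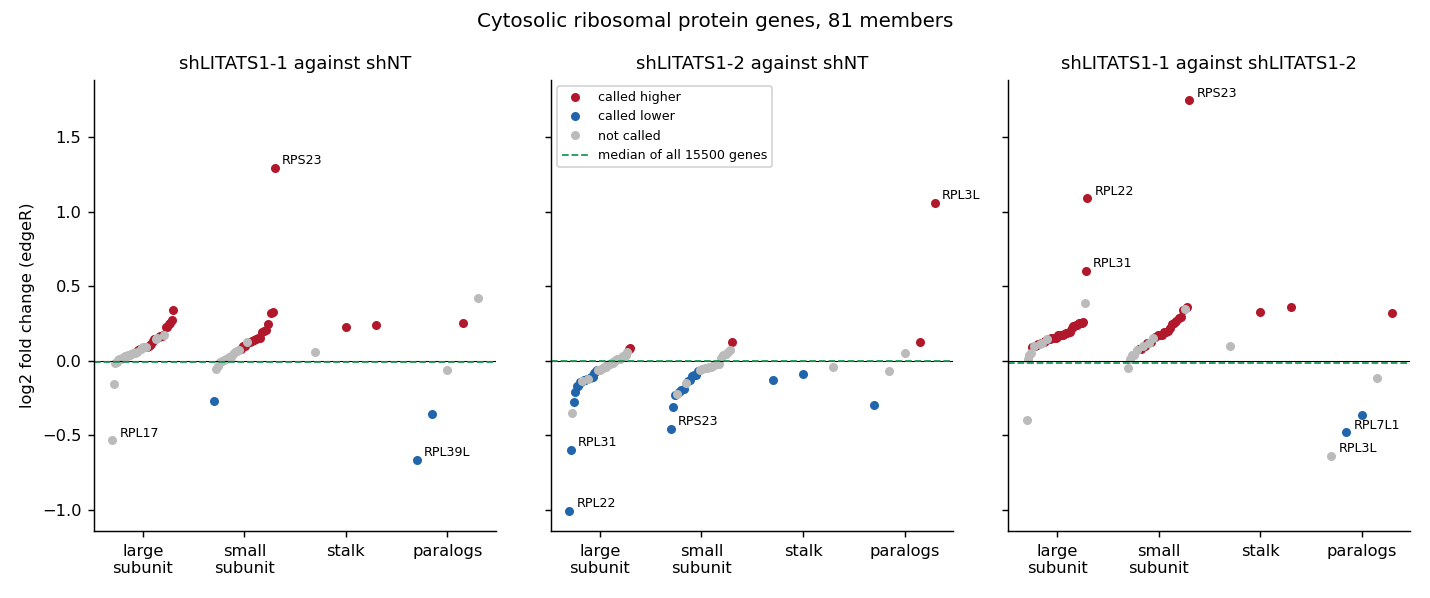
Log2 fold change of each of the 81 members in edgeR's TMM-scaled fit, by class, for shLITATS1-1 against shNT, shLITATS1-2 against shNT and shLITATS1-1 against shLITATS1-2. Red and blue points passed adjusted p below 0.05, the dashed line is the median of all 15500 genes, and RPS23 reaches 1.29 and 1.75 in the outer panels. Scaled by library size, higher calls outnumber lower ones in the middle comparison, for members and for all genes (6058 higher and 2967 lower).

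With shLITATS1-2 the members leaned the other way on the TMM scale, and this direction depended on the scaling. Of 81 members, 5 were called higher, 32 lower, and 44 did not pass. The median member stood at -0.060 (log2 fold change), beside -0.0040 for all genes. In the whole transcriptome 27.8% of genes were called higher and 28.9% lower, 56.7% in all. Scaled by total gene fragments without TMM, 25 members were called higher and 8 lower with a median of 0.053. Of all 15500 genes, 6058 were then called higher and 2967 lower. That scaling moved the median of all genes to 0.11. A change of scaling shifts all genes of a comparison nearly alike. The members' distance of 0.056 below that median could therefore hardly change, and its agreement under either scaling is no separate result. Scaled by nuclear gene fragments, 9 members were higher and 17 lower, beside 4956 and 3783 of all genes. Counts under these scalings given below are to be read beside these all-gene counts. The direction given for single members below is therefore relative to the bulk of genes. In 4 members all shLITATS1-2 libraries lay above all shNT libraries and in 23 below, against 29.4% and 30.2% of all genes.

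The count also moved with single libraries. Without shLITATS1-2 replicate 1 it was 3 higher and 41 lower, without shLITATS1-2 replicate 3 it was 8 and 20, and without shNT replicate 3 it was 7 and 19. By class on the TMM scale, 2 large subunit members were higher and 17 lower of 43, and 1 small subunit member was higher and 12 lower of 30. By library size these counts became 14 higher and 3 lower for the large subunit and 8 and 4 for the small one. Of the 3 stalk genes, 2 were called lower by TMM and none in either direction by library size.

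**Figure D3:**
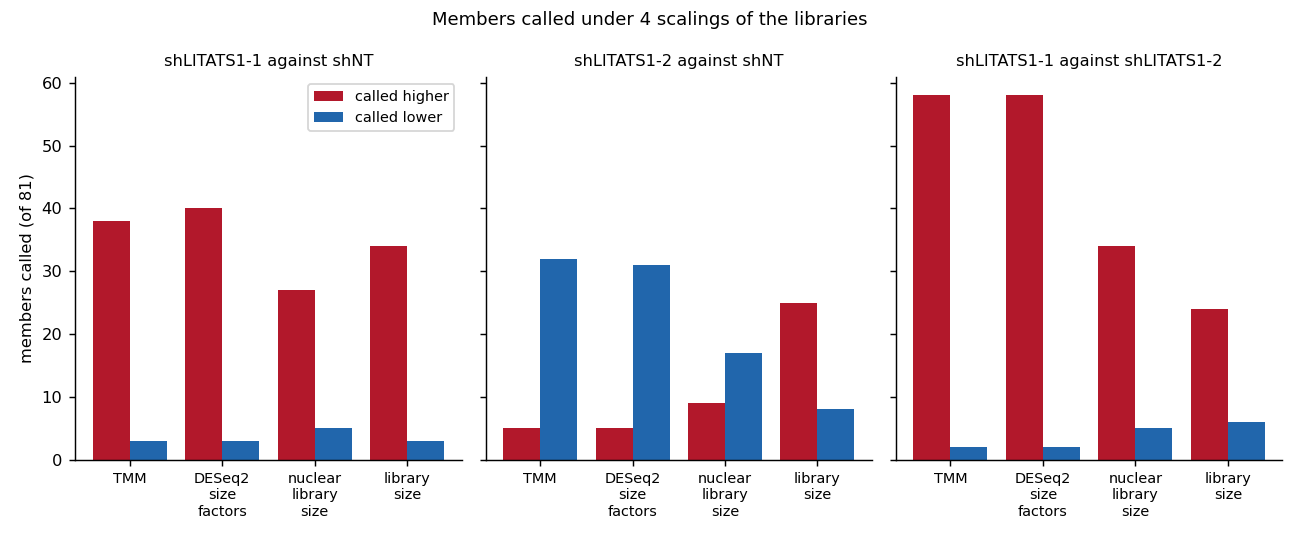
Number of the 81 members called higher (red) and lower (blue) in edgeR at adjusted p below 0.05 under 4 scalings of the libraries, for each comparison. For shLITATS1-2 against shNT the counts are 5 and 32 by TMM but 25 and 8 by library size. By library size 6058 of all 15500 genes were called higher in that comparison and 2967 lower. In the other panels higher calls outnumber lower ones under every scaling.

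RPL22, RPL31 and RPS23 had the largest decreases with shLITATS1-2 and were called lower under each of the 4 scalings. RPL22, a large subunit protein that also binds other RNAs and is not needed for viability in mice, had 32.9, 34.8 and 32.8 CPM in shLITATS1-2 cells, against 63.0, 70.0 and 68.5 CPM in shNT cells. This was the largest decrease among the members (log2 fold change -1.01, SE 0.051, adjusted p = 6.13e-28). RPL31, at the rim of the exit tunnel, had 205, 176 and 181 CPM with shLITATS1-2, against 266, 288 and 296 CPM with shNT (-0.60, SE 0.052, adjusted p = 7e-08). RPS23 had 49.9, 44.3 and 43.7 CPM, against 65.7, 60.9 and 62.3 CPM with shNT (-0.45, SE 0.046, adjusted p = 1.06e-13). In all 3 genes every shLITATS1-2 library lay below every shNT library.

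Other called decreases were those of RPL39L, RPL26, RPS15 and RPS6. RPS6, the substrate of the S6 kinases, had 1127, 1258 and 1274 CPM with shLITATS1-2, against 1415, 1368 and 1452 CPM with shNT (-0.21, SE 0.039, adjusted p = 6.99e-05). RPL26 had 8.26, 7.70 and 8.56 CPM, against 9.99, 10.0 and 9.71 CPM with shNT (-0.28, SE 0.094, adjusted p = 0.00873), a call that did not hold without shLITATS1-2 replicate 2 (-0.24).

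The 5 members called higher with shLITATS1-2 were RPL3L, RPS25, RPL7L1, RPL39 and RPL13A. RPS25, a small subunit protein used by viral internal ribosome entry sites, had 278, 263 and 248 CPM with shLITATS1-2, against 231, 245 and 247 CPM with shNT (0.13, SE 0.034, adjusted p = 0.00125). RPL13A, also known as a part of the interferon-responsive GAIT complex, had 1528, 1463 and 1444 CPM, against 1357, 1394 and 1441 CPM with shNT (0.081, SE 0.029, adjusted p = 0.0118), and did not pass without shLITATS1-2 replicate 1 (0.056). RPL39 was at 0.085 (SE 0.036, adjusted p = 0.0396) and fell short in 5 of the 9 fits with 1 library left out. Its lowest values in those fits were 0.036 without shLITATS1-2 replicate 1 and 0.041 without shNT replicate 3.

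On the TMM scale RPS25, RPL13A and RPL39 were the members called higher with both hairpins, and RPL39L was called lower with both. By library size 25 members were called higher with shLITATS1-2, among them RPS4X (0.089) and RPS19 (0.080). Both were called higher with shLITATS1-1 by TMM, so which members the hairpins share depends on the scaling. The comparisons share the shNT libraries, so a call in both is not independent evidence. With shLITATS1-1 the log2 fold changes were 0.24 for RPS25, 0.27 for RPL13A and 0.34 for RPL39, each larger than with shLITATS1-2. The differences between hairpins passed the test on the TMM scale, and that of RPS25 (0.12, adjusted p = 0.00194) did not pass without shLITATS1-2 replicate 3 (0.077) and was -0.013 by library size.

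Set directly against each other, the hairpins differed in most members. With shLITATS1-1, 58 of 81 members were called higher than with shLITATS1-2, 2 were lower and 21 did not pass. The background was 30.2% of genes called higher and 30.7% lower, 60.9% in all. The median member stood at 0.16, beside -0.015 for all genes. In the large subunit 34 of 43 members were higher and none lower at adjusted p below 0.05 in edgeR, and in the small subunit 21 of 30 were higher and none lower. In 55 members all shLITATS1-1 libraries lay above all shLITATS1-2 libraries and in 2 below, against 31.7% and 32.5% of all genes. Scaled by library size the count was 24 higher and 6 lower, beside 3293 and 6912 of all 15500 genes. By nuclear gene fragments it was 34 and 5, beside 3604 and 6347 of all genes. Library-size scaling moved the all-gene median to -0.15. Members lay 0.18 above it under either scaling, a distance that a change of scaling can hardly alter.

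RPS23 and RPL22 stood out between the hairpins. RPS23 was higher with shLITATS1-1 by 1.75 on the log2 scale (SE 0.042, adjusted p = 2.16e-47), having risen with shLITATS1-1 and fallen with shLITATS1-2 against shNT. RPL22 was higher by 1.09 (SE 0.050, adjusted p = 5.29e-30). Its 68.1, 76.8 and 68.5 CPM in shLITATS1-1 cells overlapped the shNT values (0.082, SE 0.046, adjusted p = 0.116). RPL31 was higher by 0.60 (SE 0.053, adjusted p = 5.76e-08), with 294, 274 and 284 CPM in shLITATS1-1 cells, within the range of shNT cells (0.0049, SE 0.051, adjusted p = 0.942). RPS23 thus moved in opposite directions with the hairpins, whereas RPL22 and RPL31 were called with shLITATS1-2 alone, and their difference between hairpins passed the test.

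**Figure D4:**
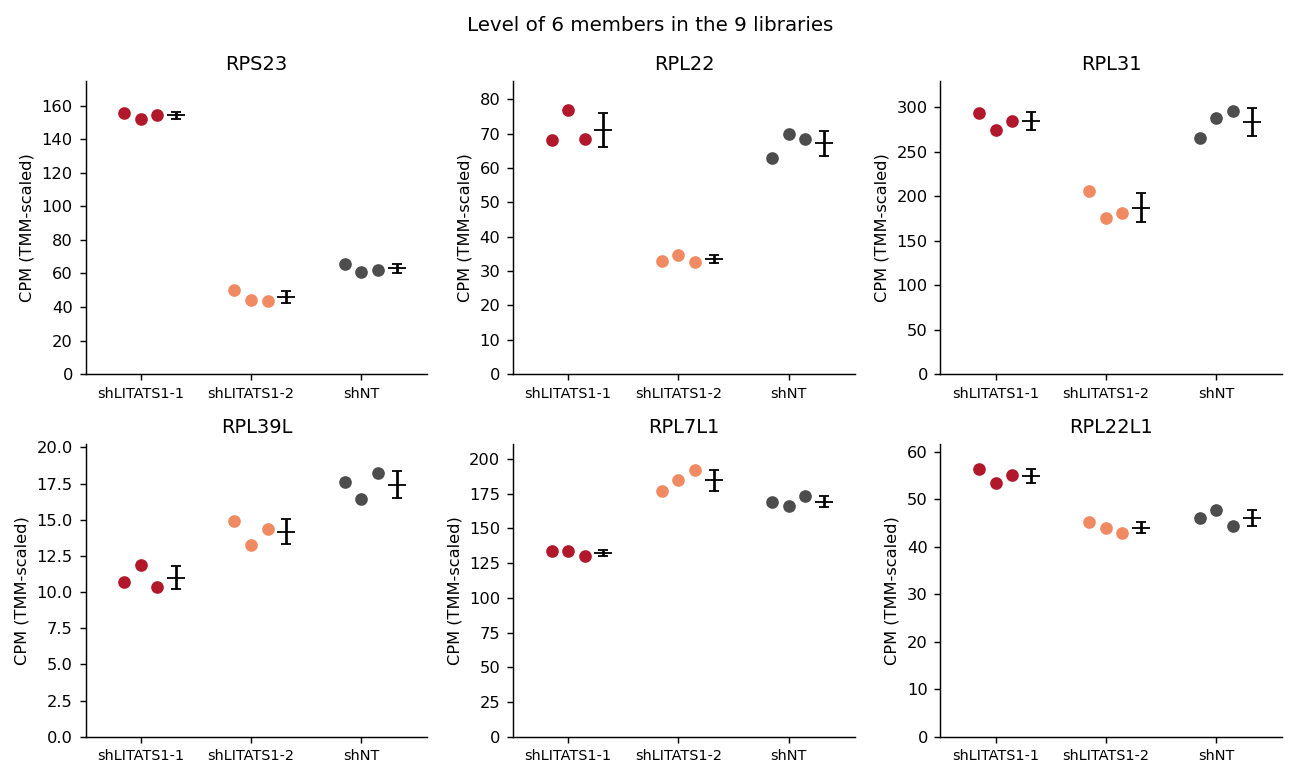
TMM-scaled CPM of RPS23, RPL22, RPL31, RPL39L, RPL7L1 and RPL22L1 in each of the 9 libraries; points are libraries, and bars are mean ± SD of 3. RPS23 is at 152 CPM or more in shLITATS1-1 libraries and at 65.7 CPM or less in all others, and RPL22 is at 34.8 CPM or less in shLITATS1-2 libraries and at 63.0 CPM or more in all others.

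The counts of RPS23, RPL22 and RPL31 have a limit of annotation. RPS23 is annotated by GENCODE 29 on the minus strand of chromosome 5 between 82273358 and 82278577 (GRCh38), and 8.90% of its exonic bases overlap exons of ATG10, an autophagy gene on the opposite strand. ATG10 itself had a log2 fold change of 0.20 with shLITATS1-1 (adjusted p = 0.0238) and -0.26 with shLITATS1-2 (adjusted p = 0.00464), the same signs as RPS23. RPL22, on chromosome 1 from 6185020 to 6209389 on the minus strand, shares 5.19% of its exonic bases with RNF207 on the opposite strand. It also shares 4.93% with AL031847.2 on its own strand, and pseudogenes named after it held 5.79% of its own count. RNF207 was at -0.25 with shLITATS1-1 (adjusted p = 0.0114) and 0.23 with shLITATS1-2 (adjusted p = 0.0122), the opposite signs. RPL31, on chromosome 2 from 101001715 to 101024032 on the plus strand, shares 9.15% with AC016738.1. The strand setting of the counting is not given in the sources used here, and the part of these overlaps in the results was not tested. RPS23 and RPL22 were also low for core proteins in shNT cells, at 14.6 and 14.0 FPKM.

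Of the stalk genes, RPLP0 and RPLP1 were called in opposite directions with the hairpins on the TMM scale and RPLP2 was not called. RPLP0, the scaffold of the stalk, had 2598, 2513 and 2573 CPM with shLITATS1-1 and 2041, 1974 and 1981 CPM with shLITATS1-2, against 2104, 2234 and 2214 CPM with shNT. It was called higher with shLITATS1-1 (0.23, SE 0.027, adjusted p = 2.97e-11) and lower with shLITATS1-2 (-0.13, SE 0.028, adjusted p = 4.97e-05); by library size the decrease did not pass (-0.015, adjusted p = 0.664). RPLP1 had 1354, 1332 and 1375 CPM with shLITATS1-1 and 1112, 1080 and 1048 CPM with shLITATS1-2, against 1146, 1113 and 1183 CPM with shNT. Its log2 fold changes were 0.24 (SE 0.028, adjusted p = 2.1e-11) and -0.087 (SE 0.028, adjusted p = 0.00655), and the second did not pass without shLITATS1-2 replicate 3 or shNT replicate 3 (-0.067 in either fit) and was positive by library size. RPLP2, which pairs with RPLP1 on the stalk, did not pass against shNT, at 0.062 (SE 0.066, adjusted p = 0.457) and -0.040 (SE 0.066, adjusted p = 0.645), nor between the hairpins (0.10, SE 0.066, adjusted p = 0.221).

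The paralogs are given beside their main copies, and the difference between a paralog and its main copy was not tested. RPL39L, known from male germ cells, had 10.7, 11.9 and 10.4 CPM with shLITATS1-1 and 14.9, 13.2 and 14.4 CPM with shLITATS1-2, against 17.6, 16.4 and 18.2 CPM with shNT. All 6 hairpin libraries lay below the shNT libraries, with log2 fold changes of -0.66 (SE 0.081, adjusted p = 5.74e-11) and -0.30 (SE 0.076, adjusted p = 0.000537). Its main copy RPL39 was called higher in the same comparisons, by 0.34 and 0.085. Per length, RPL39L therefore stood at 0.062 ± 0.0057 of RPL39 with shLITATS1-1 and 0.095 ± 0.0061 with shLITATS1-2, against 0.125 ± 0.012 with shNT (mean ± SD, n = 3 each).

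RPL7L1, which acts in assembly of the large subunit, was the member with opposite calls in the reverse order. It had 133.7, 133.7 and 130.1 CPM with shLITATS1-1 and 177, 185 and 192 CPM with shLITATS1-2, against 169, 166 and 174 CPM with shNT. It was called lower with shLITATS1-1 (-0.35, SE 0.035, adjusted p = 2.16e-14) and higher with shLITATS1-2 (0.13, SE 0.034, adjusted p = 0.000993), and no group overlapped another. Its main copy RPL7 was called higher with shLITATS1-1 (0.076, SE 0.028, adjusted p = 0.0150) and did not pass with shLITATS1-2 (-0.040, SE 0.028, adjusted p = 0.221), where by library size it was called higher (0.073, adjusted p = 0.0208).

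RPL22L1 can stand in for RPL22, and in mice the RPL22 protein is known to hold its RNA down. It had 56.4, 53.4 and 55.2 CPM with shLITATS1-1 and 45.2, 44.0 and 42.9 CPM with shLITATS1-2, against 46.1, 47.8 and 44.5 CPM with shNT. It was called higher with shLITATS1-1 (0.25, SE 0.048, adjusted p = 4.29e-06), where RPL22 did not pass, and did not pass with shLITATS1-2 (-0.067, SE 0.049, adjusted p = 0.245), where RPL22 was called lower. Per length, RPL22L1 stood at 1.56 ± 0.14 of RPL22 with shLITATS1-1 and 2.65 ± 0.11 with shLITATS1-2, against 1.38 ± 0.082 with shNT (mean ± SD, n = 3 each). Divided by transcript length in place of merged exons, the ratios were 0.7365 with shLITATS1-1 and 1.249 with shLITATS1-2, against 0.6524 with shNT, so which copy is the more abundant depends on the length used.

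RPL26L1, a close copy of RPL26, passed in no comparison on the TMM scale. It was at -0.061 (SE 0.054, adjusted p = 0.331) with shLITATS1-1 and 0.052 (SE 0.053, adjusted p = 0.42) with shLITATS1-2. By total or nuclear gene fragments, 1 of the 5 paralogs was called higher and 4 lower between the hairpins. RPL26L1 was then among those called lower. RPL3L was barely measured, with 0.526, 0.738 and 0.527 CPM with shLITATS1-1 and 0.676, 1.01 and 1.11 CPM with shLITATS1-2, against 0.461, 0.461 and 0.411 CPM with shNT. It was called higher with shLITATS1-2 (1.06, SE 0.34, adjusted p = 0.0058), with 118 counts in the 9 libraries behind the result.

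Members with and without a pyrimidine run at the start were compared by count. Of all tested genes 61% were called with shLITATS1-1 and 56.7% with shLITATS1-2 on the TMM scale. With shLITATS1-1, 58.5% of the members with a run were called and 36.4% of those without, and with shLITATS1-2 43.4% and 45.5%. Of the 53 with a run, 31 were called higher and none lower with shLITATS1-1 at adjusted p below 0.05 in edgeR (median 0.13), while of the 11 with a start and no run 3 were higher and 1 lower (median 0.025). With shLITATS1-2 the counts were 3 higher and 20 lower with a run (median -0.053) and 1 and 4 without (median -0.061) on the TMM scale, and by library size 18 and 5 with a run and 3 and 0 without. RPS23, RPL22 and RPL31, the members with the largest called differences between the hairpins, carry a run, and RPL7L1, the next, carries none, as the printed starts show. The lists differ in size, and the difference between them was not tested. The 11 without a run include the paralogs RPL7L1 and RPL26L1. Where a gene had several starts, the 1 with the longest run was used. A run was sought only within 5 bases of the start, and RPL9 and RPS26 have pyrimidine runs just beyond that. The list without a run is therefore not a list of members without a TOP motif. Introns of 27 members host small nucleolar RNAs. Of these, 14 were called higher and none lower with shLITATS1-1, against 24 and 3 of the 54 others; with shLITATS1-2 the TMM counts were 2 and 8, against 3 and 24, and by library size 12 and 3, against 13 and 5.

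Summed over members, ribosomal protein genes gave 4.80%, 4.65% and 4.64% of gene fragments in shLITATS1-1 libraries and 4.65%, 4.46% and 4.35% in shLITATS1-2 libraries, against 4.23%, 4.38% and 4.50% in shNT libraries. The means were 4.70% ± 0.091 with shLITATS1-1 and 4.49% ± 0.15 with shLITATS1-2, against 4.37% ± 0.14 with shNT (SD, n = 3 each). Every shLITATS1-1 library lay above every shNT library, and the shLITATS1-2 libraries overlapped both other groups. Mitochondrially encoded genes, which share the total, gave 10.2% ± 0.12 with shLITATS1-1 and 7.97% ± 0.23 with shLITATS1-2, against 12.2% ± 0.22 with shNT. Of nuclear gene fragments alone, members gave 5.23% ± 0.098 with shLITATS1-1 and 4.88% ± 0.16 with shLITATS1-2, against 4.98% ± 0.14 with shNT, so shLITATS1-2 stood above shNT by one denominator and below it by the other. The ratio of large subunit and stalk fragments to small subunit fragments was 1.79 ± 0.016 with shLITATS1-1 and 1.80 ± 0.018 with shLITATS1-2, against 1.78 ± 0.0064 with shNT, differences within the replicate spread. Pseudogenes named after members gave 0.0523% of gene fragments with shLITATS1-1 and 0.0497% with shLITATS1-2, against 0.0486% with shNT.

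**Figure D5:**
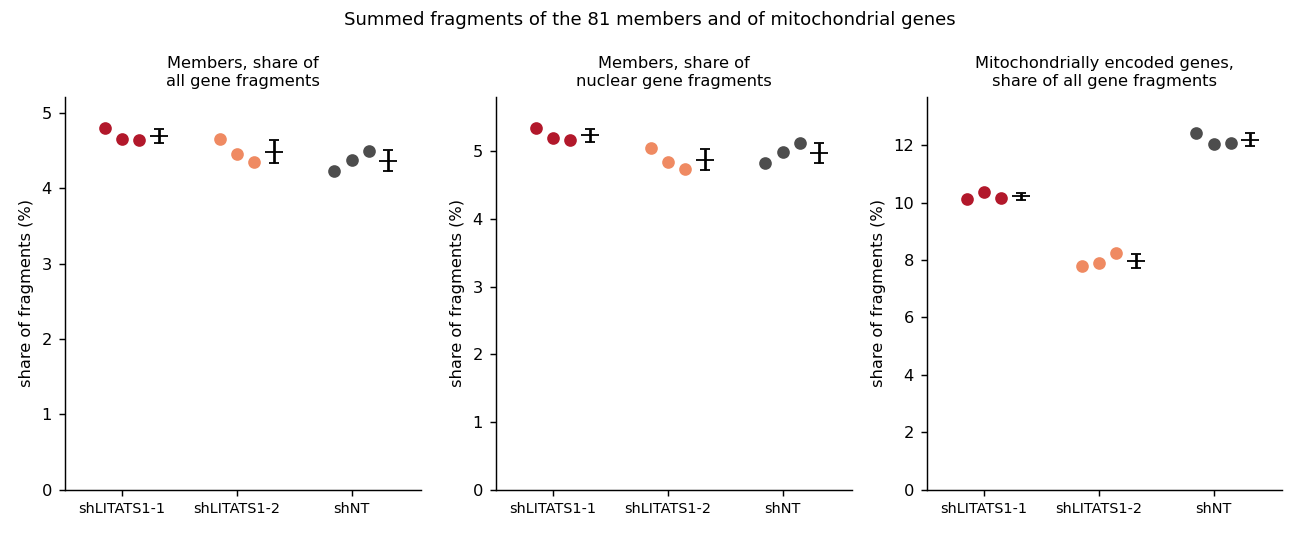
Share of fragments (%) from the 81 members in all gene fragments (left) and in nuclear gene fragments (middle), and from mitochondrially encoded genes (right); points are libraries, bars mean ± SD of 3. The members take 4.64 to 4.80% of all gene fragments with shLITATS1-1 and 4.35 to 4.65% with shLITATS1-2, against 4.23 to 4.50% with shNT.

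Ribosomal proteins whose symbols fall outside the naming rule were examined in the same fits. RPSA, a small subunit protein also known as a laminin receptor, was called higher with shLITATS1-1 (0.28, adjusted p = 3.43e-14) and lower with shLITATS1-2 (-0.086, adjusted p = 0.00547, but 0.027 and not passing by library size). FAU, which encodes RPS30 fused to a ubiquitin-like protein, was at 0.16 (adjusted p = 0.00035) and -0.012 (adjusted p = 0.811), the second called higher by library size (0.10, adjusted p = 0.0247). RACK1, a scaffold on the small subunit head, was at 0.075 (adjusted p = 0.0213) and -0.17 (adjusted p = 4.77e-07), and the first of these calls did not hold without shLITATS1-1 replicate 1 (0.060), shLITATS1-1 replicate 3 (0.072) or shNT replicate 1 (0.059). RPL36AL, the near copy of RPL36A, was lower with both, at -0.11 (adjusted p = 0.00362) and -0.10 (adjusted p = 0.00915), the second not passing without shLITATS1-2 replicate 3 (-0.067) or by library size (0.013, adjusted p = 0.763). RPS27L, a p53-inducible paralog of RPS27, had 202, 212 and 209 CPM with shLITATS1-1 and 190, 182 and 167 CPM with shLITATS1-2, against 152, 138 and 149 CPM with shNT (0.51, SE 0.038, adjusted p = 4.67e-17, and 0.30, SE 0.038, adjusted p = 1.6e-09).

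Other genes whose mRNAs are known to carry TOP motifs moved in mixed directions with shLITATS1-1. Of 17 tested, 6 were called higher and 5 lower (median 0.030), and EEF1G was listed at 0 in all libraries. By TMM 64.7% were called with shLITATS1-1 and 70.6% with shLITATS1-2, beside 61% and 56.7% of all tested genes. PABPC1, the cytoplasmic poly(A)-binding protein, was at 0.40 (adjusted p = 1.41e-21) and the elongation factor subunit EEF1B2 at 0.37 (adjusted p = 5.26e-18), whereas the nucleolar chaperone NPM1 was at -0.34 (adjusted p = 3.98e-18). With shLITATS1-2, 2 were higher and 10 lower by TMM (median -0.11) and 6 and 3 by library size (median 0.0010), with NPM1 at -0.48 (adjusted p = 1.42e-25).

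Mitochondrial ribosomal proteins, which serve the separate ribosome of that organelle, went the other way from the cytosolic ones with shLITATS1-1. Of 75 tested, 2 were called higher and 49 lower (median -0.19), beside 30.5% each way of all tested genes. This direction held by total and nuclear library size. With shLITATS1-2, 5 were higher and 38 lower by TMM (median -0.13), but 15 and 16 by library size (median -0.019). MRPL42 was at -0.90 with shLITATS1-1 (adjusted p = 4.65e-27) and 0.065 with shLITATS1-2 (adjusted p = 0.197). MRPS10 was at -0.45 (adjusted p = 1.81e-12) and 0.48 (adjusted p = 6.51e-15).

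Of 26 translation initiation factors, none was called higher (0 also at an unadjusted p below 0.05 and in DESeq2) and 19 were called lower with shLITATS1-1 at adjusted p below 0.05 in edgeR (median -0.17), among them EIF5, the activator of the eIF2 GTPase, at -0.59 (adjusted p = 2.98e-28). With shLITATS1-2, 4 were higher and 12 lower by TMM (median -0.076), and 11 and 4 by library size (median 0.037). Of 18 regulators of TOP mRNAs and the mTORC1 branch, 4 were higher and 9 lower with shLITATS1-1. With shLITATS1-2 the counts were 3 and 6 by TMM and 10 and 1 by library size. By TMM 73.1% of the initiation factors and 72.2% of the regulators were called with shLITATS1-1, beside 61% of all tested genes. With shLITATS1-2 it was 61.5% and 50%, beside 56.7%. LARP1, the repressor and stabiliser of TOP mRNAs, was at -0.16 with shLITATS1-1 (SE 0.031, adjusted p = 5.14e-06) and -0.060 with shLITATS1-2 (SE 0.031, adjusted p = 0.0941). MTOR, the kinase of the complex, passed with neither, at -0.079 (SE 0.041, adjusted p = 0.093) and 0.057 (SE 0.040, adjusted p = 0.227). EIF4EBP2, a translation repressor inactivated by mTORC1, rose with both, by 0.86 (adjusted p = 5.62e-31) and 0.78 (adjusted p = 2.41e-28), and MLST8, an mTOR partner, fell with both, by 0.77 (adjusted p = 3.49e-23) and 0.38 (adjusted p = 5.84e-11). LARP4, which binds poly(A) and stabilises ribosomal protein mRNAs, fell by 1.00 with shLITATS1-1 (adjusted p = 2.98e-33) and was at 0.047 with shLITATS1-2 (adjusted p = 0.293).

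Of 12 chaperones and importers of ribosomal proteins, 3 were called higher and 5 lower with shLITATS1-1. That was 66.7% in all, beside 61% of all tested genes. GRWD1, the chaperone of RPL3, was at -0.47 (adjusted p = 2.62e-17), and TSR2, the chaperone of RPS26, at -0.40 (adjusted p = 2.53e-10). Among the RNAs of the proteins they carry, RPL3 was at 0.11 (SE 0.028, adjusted p = 0.000795) and RPS26 at 0.025 (SE 0.035, adjusted p = 0.551). With shLITATS1-2, 1 of the 12 was higher and 3 were lower by TMM, and 6 and 1 by library size. By TMM this was 33.3% in all, beside 56.7% of all tested genes. Of 11 genes of ribosome quality control and rescue, 2 were higher and 5 lower with shLITATS1-1, and 6 and 4 with shLITATS1-2. That was 63.6% and 90.9% called, beside 61% and 56.7% of all tested genes.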

How the data were processed

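The authors deposited raw fragment counts per gene for 9 libraries in 1 table. The submitters' processing notes name HTSeq 0.12.4, STAR 2.7.5a, cutadapt 2.10 and FastQC, and the build GRCh38. How strand was handled in counting, and which annotation was counted, is not given in the sources used here. Counter totals outside genes entered neither library sizes nor fits (ambiguous fragments 10.2% to 10.8% by group, unaligned 3.79% to 5.56%).

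Genes past filterByExpr (minimum count 10) were fitted with edgeR 4.0.16 (R 4.3.3; TMM, glmQLFit robust, 6 residual degrees of freedom, all 9 libraries, group only), two-sided, with Benjamini-Hochberg adjustment over all 15500 genes and a threshold of 0.05. CPM are TMM-scaled, except for the cell type markers and the limit of 0.15 CPM for RPL10L, which used library sizes without TMM. FPKM used merged exons of GENCODE 29 and library sizes without TMM. No test was made over the member list. The members and gene lists were chosen with earlier results of these data known. Genes named are, per comparison, the 8 members with the largest called change in each direction, the 5 highest and 5 lowest per length, a fixed list of well-known members and paralogs, and up to 4 called genes of other lists; ATG10, RNF207 and the exceptions in flagged results were named after their values were seen. A few genes that meet these criteria are left out of the text. Replicates were checked in pairs by chi-square tests (1.47 to 2.72 per degree of freedom over all genes and 6.59 to 46.1 over the members, above sampling noise). The edgeR fit was tested on simulated counts with known changes in the shLITATS1-1 group. Alternatives were DESeq2 1.42.0, other scalings, filters, corrections for length and GC, pseudogene counts, a replicate block and leaving out each library.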

Additional observations from a re-analysis of the deposited data

Results flagged for a closer look

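A result was marked for a closer look where a member was called in opposite directions with the 2 hairpins and the difference between the hairpins passed edgeR's test. This held for 13 members on the TMM scale, among them those given here. The largest difference, shLITATS1-1 minus shLITATS1-2 on the log2 scale, was 1.75 for RPS23. RPL7L1 was the member with the reverse order, at -0.479. The stalk genes RPLP0 and RPLP1 differed by 0.358 and 0.326. Among small subunit members RPS6 differed by 0.34, RPS2 by 0.295, RPS24 by 0.284 and RPS20 by 0.19. Among large subunit members RPL15 differed by 0.255, RPL36 by 0.221, RPL3 by 0.171 and RPL10A by 0.154. Scaled by library size, RPS23 (1.27 with shLITATS1-1 and -0.34 with shLITATS1-2, against shNT), RPL7L1 (-0.37 and 0.24), RPS2 (0.083 and -0.082) and RPS6 (0.11 and -0.098) were still called in opposite directions. The others given here were not, and the differences of RPL10A, RPL3 and RPS20 between the hairpins then no longer passed (0.023, 0.040 and 0.059).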

How the results depend on the processing

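Scaling was the choice that mattered most. Against shNT, shLITATS1-2 had 25 members called higher and 8 lower by library size, 9 and 17 by nuclear library size, 3 and 19 at adjusted p below 0.01, and 3 higher in DESeq2. Of all 15500 genes, 6058 and 2967 were called by library size, and 4956 and 3783 by nuclear library size. Leaving out 1 library at a time gave 3 to 8 higher and 19 to 41 lower. shLITATS1-1 had 5 members lower by nuclear library size, and 31 to 42 higher and 2 to 3 lower with 1 library left out. Between the hairpins the counts were 24 and 6 by library size, 34 and 5 by nuclear library size, and 51 to 66 and 2 to 3 with 1 library left out. For all genes they were 3293 and 6912 by library size, and 3604 and 6347 by nuclear library size. A correction for gene length gave 53 higher and 2 lower for shLITATS1-1 against shNT. The members' shares of nuclear fragments were 5.232%, 4.876% and 4.975% for shLITATS1-1, shLITATS1-2 and shNT. By transcript length RPS2 stood at 1764 FPKM, RPL19 at 1178, RPL13A at 1156 and RPL8 at 1168. The cause of these changes was not tested.

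The signs that turned by library size are not all listed here. For shLITATS1-2 against shNT they included the member median (0.0527), FAU (0.101), RPL10A (0.0288), RPL15 (0.00121), RPL23 (0.00363), RPL3 (0.0489), RPL36AL (0.0131), RPL5 (0.0695), RPL7 (0.0729), RPLP1 (0.0258), RPS19 (0.0802), RPS20 (0.0201), RPS26 (0.0153), RPS4X (0.0888), RPS7 (0.047) and RPSA (0.0267). Of these, FAU, RPL5, RPL7, RPS19 and RPS4X were then called higher. Between the hairpins RPL23 (-0.0267), RPL5 (-0.0367), RPL7 (-0.0145), RPS25 (-0.0125), RPS26 (-0.00815), RPS27A (-0.0489) and RPS7 (-0.052) were among those that turned by library size. RPL5 (-0.001), RPS27A (-0.0132) and RPS7 (-0.0163) were among those that turned by nuclear library size. Adding pseudogene counts turned RPS10 with shLITATS1-1 against shNT (-0.359) and between hairpins (-0.442), and both then passed (adjusted p = 0.0153 and 0.00233). For shLITATS1-1 against shNT a GC correction turned RPS15 (0.0662, then called higher).

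The labels do not say whether the replicate numbers pair the libraries. Same-numbered deviations correlated at -0.188 to 0.0795 and differently numbered ones at -0.0873 to 0.132. Such low correlations show no pairing but cannot exclude it. With a replicate block the counts were 37 and 3, 5 and 32, and 59 and 2. A minimum count of 50 left 77 members to test. Depth limits the members with the fewest counts, RPL3L, RPS10, RPL17 and RPL36A.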
